A study of Mus musculus with 12 samples.

Results

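Potassium channels outside the Kv4 complex are described here across 12 RNA-seq libraries of the embryonic mouse cortex. The members are all genes whose symbol starts with Kcn, without the Kv4 pore genes (Kcnd), the proteins named for binding them (Kcnip), Kcnj8, Kcnk9, Kcnq1ot1 and symbols ending in os or -ps. This left 87 of 99 Kcn rows, among 55357 genes in all. The choice went by symbol, without a cutoff on a measured value, but was made with earlier results of these data known. Of the 87, 85 encode channel pores or subunits, and Kcnmb4os1 and Kcnmb4os2 are transcripts from the strand opposite Kcnmb4. The libraries came from cortex at E17.5, dissected together with the hippocampal formation and divided into a caudal and a rostral part. Knockout embryos (NcreEGFRFF) carried a Nestin-Cre transgene, and both of their copies of Egfr, which encodes the epidermal growth factor receptor, were floxed. The Nestin regulatory elements drive Cre recombinase in neural progenitors, so cells of other origin in the tissue can keep the gene. Control embryos (EGFRF+) carried 1 floxed and 1 intact allele, so every library comes from an embryo with a floxed allele. Whether controls carry Cre is not given in the sources used here, and loss of Egfr and presence of the transgene cannot be told apart. The 4 groups are knockout caudal, knockout rostral, control caudal and control rostral, with 3 libraries each from titled embryos 5, 2 and 7 (knockout) and 1, 3 and 9 (control).

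Potassium channels let potassium leave the cell and so set the resting potential, repolarize the action potential and limit repetitive firing. Their genes are grouped by the letter after Kcn into voltage-gated channels (Kcna to Kcnc, the EAG-related Kcnh and the M-current genes Kcnq), channels opened by intracellular calcium or sodium (Kcnma, Kcnn, Kcnt), inward rectifiers (Kcnj) and two-pore leak channels (Kcnk). Kcnf, Kcng, Kcns and Kcnv encode silent subunits that pass no current alone and modify channels of the Kcnb type. Kcnab, Kcne and Kcnmb encode auxiliary subunits. In the developing cortex the resting potential of progenitors and young neurons rests largely on leak and inward rectifier channels, and the fast voltage-gated types are added as neurons mature.

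The labels of genotype, part and embryo were checked before any comparison. Egfr averaged 6.41 ± 0.836 CPM (counts scaled to a library total of 1e+06) in knockout caudal libraries and 36.1 ± 5.90 CPM in control caudal libraries (SD, n = 3 each). In rostral libraries it averaged 5.13 ± 1.68 CPM in knockout and 25.4 ± 5.96 CPM in control (SD, n = 3 each). By an exact two-sided permutation test p was 0.1 in both parts, and groups of 3 allow none smaller. The labelled part and embryo were not borne out in the same way. Nr2f1, a transcription factor gene whose level is known to rise towards the caudal cortex, ran from 58.6 to 373 CPM in the libraries labelled caudal and from 50.7 to 348 CPM in those labelled rostral. Control libraries rostral 1 and 3 held both Xist and transcripts of the Y chromosome, and the libraries titled for knockout embryos 5 and 2 and control embryo 9 differed in sex between their parts. Parts and embryos are therefore given as labelled, and n counts libraries or titled sums, which may not be separate embryos, so that a p-value speaks of the spread between those libraries or sums. The mitochondrial share of the counts was 7.25% in knockout rostral 7 and 4.77% in knockout caudal 5, against 1.96% to 3.53% in the other libraries. Markers of cortical identity were present in every library. Tbr1 was at 169 to 368 CPM in knockout libraries and 161 to 334 CPM in control libraries, Neurod6 at 513 to 915 CPM in knockout and 569.7 to 970.2 CPM in control, and Emx1 at 32.6 to 51.2 CPM in knockout and 28.5 to 45.2 CPM in control libraries.

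The channels formed a repertoire of broad membership and few abundant genes. Of the 85 channel and subunit genes, 67 had counts in every library, 51 averaged at least 1 CPM, 25 at least 10 CPM and 4 at least 50 CPM. A further 13 averaged under 0.1 CPM, among them Kcnj1, the renal outer medullary channel, and Kcnmb3, an auxiliary subunit of the large-conductance calcium-activated channel, which had 0 counts in all 12 libraries. A count of 0 allows up to 3 counts, or 0.0987 to 0.119 CPM per library, and this limit covers counting error only. Compared per kb of exon length, the 5 leading genes held 37.6% and the 10 leading genes 57.0% of the summed level of all 85. Among them, in order of level per kb, were Kcnk2 at 15.97, Kcnq3 at 12.7, Kcnj11 at 10.3, Kcne1l at 7.92, Kcna3 at 6.93, Kcnk10 at 6.62, Kcnj10 at 6.13, Kcnk1 at 5.26 and Kcnc1 at 4.99 CPM per kb. The leaders thus came from 6 subfamilies. These are levels in whole tissue, where fewer cells of a type and less RNA per cell cannot be told apart.

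**Figure D1:**
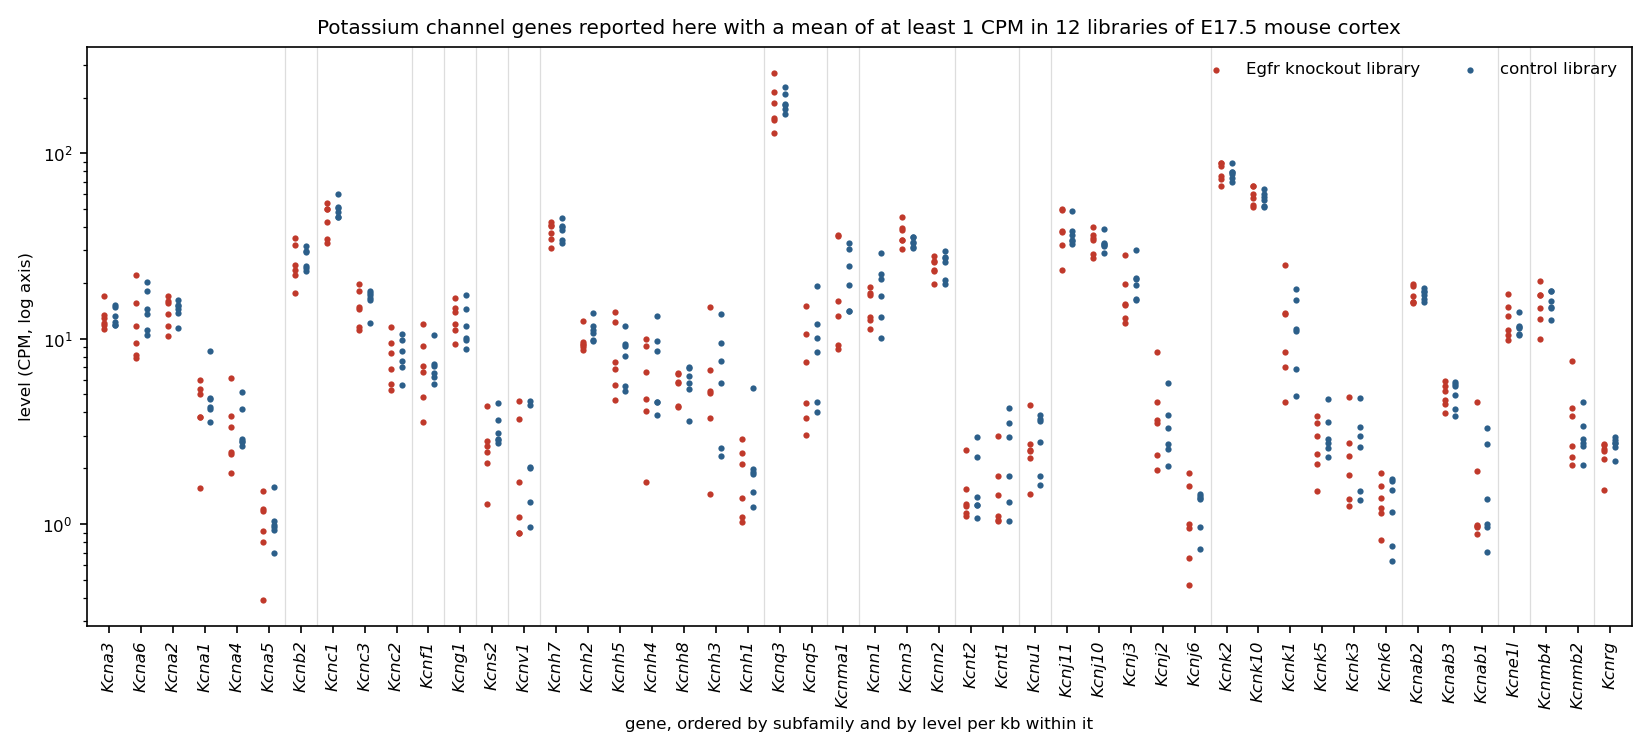
Level of each of the 48 channel and subunit genes reported here with a mean of at least 1 CPM (log axis), with 1 point per library and 6 libraries per genotype, knockout left of control. Kcnq3 stands highest in CPM of the genes drawn, and the points of knockout and control overlap for every gene.

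Summed by subfamily, the two-pore channels (Kcnk) reached 159 ± 11.2 CPM in knockout and 155 ± 8.15 CPM in control libraries (SD, n = 6 each). Inward rectifiers (Kcnj) reached 98.0 ± 15.2 CPM in knockout and 99.3 ± 10.9 CPM in control libraries. Per kb Kcnk held 19.5% and Kcnj 14.2% of the summed level of the 85 genes. Averaged over the 12 libraries, the sums were 78.2 CPM for Kcnh, 77.1 CPM for Kcnn, 71.3 CPM for Kcnc and 49.97 CPM for Kcna. The sums of Kcnb and Kcnq are not given here. For each of the other 17 subfamilies the range of the 6 knockout libraries overlapped that of the 6 control libraries. The sum of all 85 genes was lowest in knockout rostral 7, at 899.5 CPM, and highest in knockout rostral 2, at 1299.6 CPM, so that the knockout libraries spanned the whole range and the control libraries lay between 1044.7 and 1167.1 CPM.

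**Figure D2:**
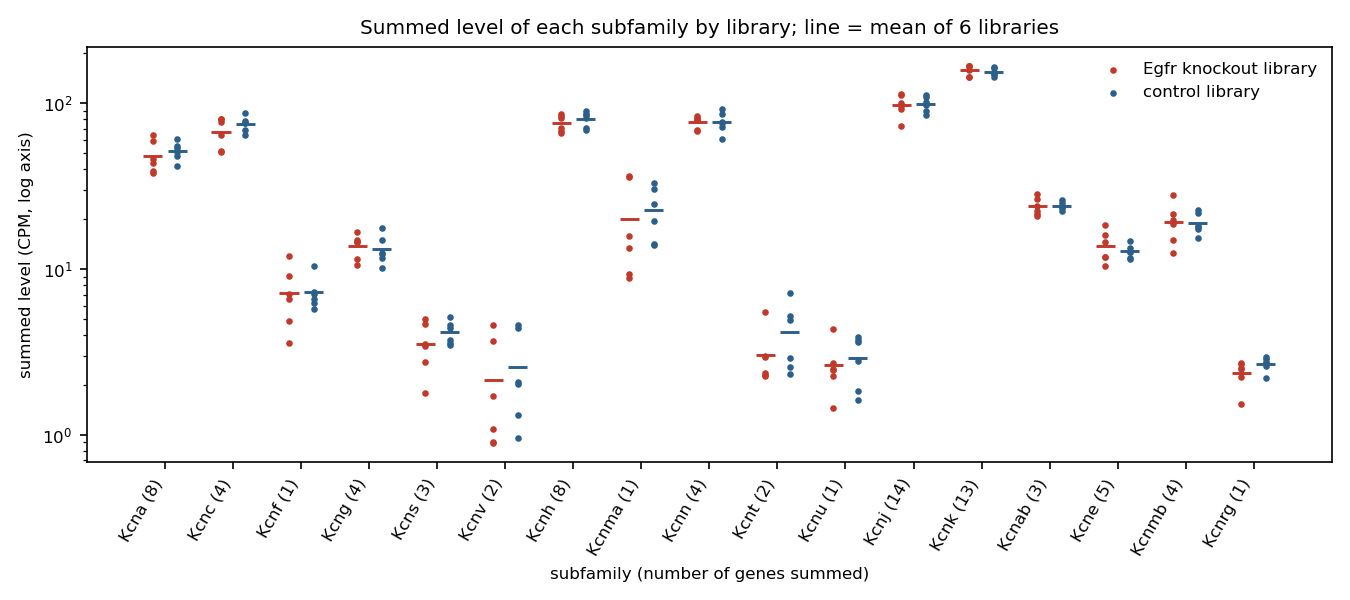
Summed level of each of 17 subfamilies in CPM (log axis), with 1 point per library, lines at the mean of 6 libraries and the number of genes summed in brackets, knockout left of control. The sums of Kcnb and Kcnq are not drawn. Of the 17 drawn, Kcnk sums lie highest, between 144 and 168 CPM, and the genotypes overlap in each.

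Among the M-current genes, Kcnq3 (ENSMUSG00000056258.10, GRCm39 chromosome 15, 65858236 to 66158491) encodes a subunit of the channel that holds neurons below firing threshold. Kcnq3 stood at 152, 187 and 270.3 CPM in knockout caudal libraries 5, 2 and 7 and at 128, 213 and 156 CPM in knockout rostral libraries 5, 2 and 7. In control caudal libraries 1, 3 and 9 it stood at 209, 174 and 227 CPM, and in control rostral libraries 1, 3 and 9 at 164, 184 and 182 CPM. Its highest and its lowest library were both knockout libraries, and the control values lay between them. Kcnq5, a further M-current subunit, averaged 8.57 CPM, and the ratio of Kcnq3 to Kcnq5 per kb ran from 4.45 in knockout rostral 5 to 46.99 in knockout caudal 7. Kcnq1, the cardiac and epithelial member, averaged 0.547 CPM. Kcnq5 ranged widely, at 3.01 to 15.1 CPM in knockout libraries and 3.998 to 19.2 CPM in control libraries.

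The two-pore channels were led by a pair of mechano-gated and lipid-gated leak channels. Kcnk2 (TREK-1; ENSMUSG00000037624.16, chromosome 1, 188940127 to 189134470), the first of all members per kb, stood at 67.1, 89.0 and 73.0 CPM in knockout caudal libraries and at 88.7, 85.6 and 75.4 CPM in knockout rostral libraries. Control caudal libraries had 70.1, 77.7 and 78.9 CPM and control rostral libraries 79.2, 73.8 and 88.7 CPM. All 12 values lay within a narrow band, and the groups overlapped. Its relative Kcnk10 (TREK-2) ran from 51.0 to 67.1 CPM in knockout libraries, with a median of 59.2, and from 51.1 to 63.9 CPM in control libraries, with a median of 56.9. The per-kb ratio of Kcnk2 to Kcnk10 stayed between 1.95 and 2.98 in all 12 libraries. Kcnk1 (TWIK-1), a weakly conducting channel, was more variable, at 4.54 to 24.9 CPM in knockout libraries and 4.92 to 18.5 CPM in control libraries. Kcnk5 (2.92 CPM), the acid-sensitive Kcnk3 (2.58) and Kcnk6 (1.30) were low on average, and the other 7 listed two-pore genes averaged under 1 CPM.

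Inward rectifiers were led by the ATP-sensitive channel and the glial channel. Kcnj11, whose pore is gated by the cell's energy state, stood at 38.2, 37.5 and 49.8 CPM in knockout caudal libraries and at 49.95, 31.9 and 23.3 CPM in knockout rostral libraries. Control caudal libraries had 38.0, 32.4 and 33.8 CPM and control rostral libraries 49.0, 34.1 and 36.2 CPM. Knockout rostral 7 was the lowest library, and it also had the highest mitochondrial share. The sulfonylurea receptor Abcc8, which completes this channel, averaged 22.3 CPM, and the per-kb ratio of Kcnj11 to Abcc8 ran from 2.99 to 4.95 in knockout and from 2.91 to 4.01 in control libraries. Kcnj10, the channel with which astroglia clear potassium, spanned 27.1 to 39.9 CPM in knockout libraries and 28.9 to 39.3 CPM in control libraries. Its partner Kcnj16 averaged 0.692 CPM. Of the G-protein-gated members, through which inhibitory receptors slow firing, Kcnj3 averaged 19.0 CPM and Kcnj6, Kcnj9 and Kcnj5 between 0.804 and 1.16 CPM. Kcnj3 exceeded Kcnj6 by 13.8-fold to 61.4-fold per kb in every library. Kcnj2, a strong rectifier that stabilizes the resting potential, spanned 1.95 to 8.496 CPM in knockout libraries and 2.05 to 5.80 CPM in control libraries.

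Among calcium-activated channels 3 small-conductance genes stood above the large-conductance gene per kb, with Kcnn1 at 3.69, Kcnn3 at 3.36 and Kcnn2 at 3.32 against Kcnma1 at 1.25 CPM per kb. Kcnn3, Kcnn2 and Kcnn1, which contribute to the hyperpolarization after spikes, averaged 35.1, 24.8 and 16.9 CPM, and Kcnn4, typical of blood and epithelial cells, 0.230 CPM. Kcnma1 (ENSMUSG00000063142.16, chromosome 14, 23339499 to 24064559), the pore of the large-conductance channel opened by calcium and depolarization together, averaged 21.3 CPM. It stood at 8.79, 15.9 and 9.30 CPM in knockout caudal libraries and at 35.7, 36.5 and 13.3 CPM in knockout rostral libraries, against 14.2, 24.8 and 14.03 CPM in control caudal and 32.9, 30.4 and 19.5 CPM in control rostral libraries. The highest 4 libraries were all labelled rostral, and 2 of each genotype. Its neuronal auxiliary subunit Kcnmb4 varied less, at 9.96 to 20.6 CPM in knockout libraries and 12.6 to 18.2 CPM in control libraries. The per-kb ratio of Kcnmb4 to Kcnma1 therefore ran from 2.46 in knockout rostral 5 to 9.97 in knockout caudal 5. The inactivating subunit Kcnmb2 averaged 3.41 CPM, and Kcnmb1, known from smooth muscle, 0.0694 CPM. The sodium-activated channels Kcnt1 and Kcnt2 averaged 2.02 and 1.59 CPM. Kcnu1, a channel known from sperm, was present at 1.45 to 4.37 CPM in knockout and 1.62 to 3.88 CPM in control libraries.

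Apart from the Kcnq genes, the voltage-gated pore genes were spread over many members at middle levels. Kcnc1, a fast channel that allows high firing rates, led its subfamily with 34.4, 54.2 and 42.8 CPM in knockout caudal and 49.95, 50.3 and 33.0 CPM in knockout rostral libraries. Control caudal libraries had 45.1, 60.4 and 45.2 CPM and control rostral libraries 50.9, 48.3 and 51.5 CPM. The lowest 3 values belonged to knockout rostral 7, caudal 5 and caudal 7, and the other knockout values lay among the controls. The delayed rectifier Kcnb2 averaged 26.5 CPM, with 17.6 to 34.8 CPM in knockout libraries and 23.3 to 31.7 CPM in control libraries. Of the Kcna genes, which open near threshold, Kcna2, Kcna6 and Kcna3 averaged 14.2, 13.6 and 13.2 CPM, and Kcna1 4.63 CPM. Kcnh7, an ERG channel, averaged 38.2 CPM and the related Kcnh2 10.4 CPM. The ELK genes Kcnh4, Kcnh8 and Kcnh3 averaged 6.72, 5.67 and 6.54 CPM, and the EAG genes Kcnh5 and Kcnh1 8.33 and 2.06 CPM.

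Of the silent subunits, Kcng1 (12.5 CPM) and Kcnf1 (7.21 CPM) were highest, followed by Kcns2 (2.94) and Kcnv1 (2.35). Among auxiliary subunits, Kcnab2, which binds Kcna channels in the cytoplasm, averaged 17.3 CPM, Kcnab3 4.99 CPM and Kcnab1 1.70 CPM. The single-span subunit Kcne1l on chromosome X averaged 12.2 CPM, and the other 4 Kcne genes under 1 CPM. Kcne2 and Kcnj13, both known from choroid plexus, reached their highest levels, 0.476 and 0.238 CPM, in control rostral 3. There the summed level of 7 choroid plexus markers was 57.1 CPM, against 0.508 to 9.79 CPM in knockout libraries and 2.33 to 15.3 CPM in the other control libraries. Kcnrg, a cytoplasmic regulator, averaged 2.52 CPM, and the opposite-strand transcript Kcnmb4os2, in strand-specific counts, 3.26 CPM.

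Members differed in how evenly they were expressed. Over the 12 libraries the coefficient of variation of the 52 members (51 genes and Kcnmb4os2) with a mean of at least 1 CPM ran from 8.52% for Kcnab2 to 71.6% for Kcnab1. Its median was 29.7%, against 13.1% for all 14795 genes of at least 1 CPM, whose median level was higher, at 23.1 CPM against 8.82 CPM for the members. After Kcnab2, the most even were Kcnk2 (9.59%), Kcnk10 (10.02%) and Kcnh7 (11.1%). The most uneven after Kcnab1 were Kcnh3 (65.2%), Kcnv1 (65.1%), Kcnq5 (59.1%) and Kcnh1 (57.7%). Kcnh3, an ELK channel of forebrain neurons, stood at 5.07, 1.45 and 6.82 CPM in knockout caudal libraries and at 3.74, 14.8 and 5.25 CPM in knockout rostral libraries. In control caudal libraries it stood at 7.54, 2.34 and 9.46 CPM and in control rostral libraries at 5.80, 13.6 and 2.57 CPM. Its spread lay within each group of 3 rather than between the labelled groups. Kcnh3 and Kcnb2 were highest in the same 5 libraries as Nr2f1, and Kcnh5 in the 5 libraries where Nr2f1 was lowest. Among all genes of at least 1 CPM 2.27% had the first order and 2.66% the second, against 3.85% and 1.92% of the 52 members, so the members lay near the background.

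**Figure D3:**
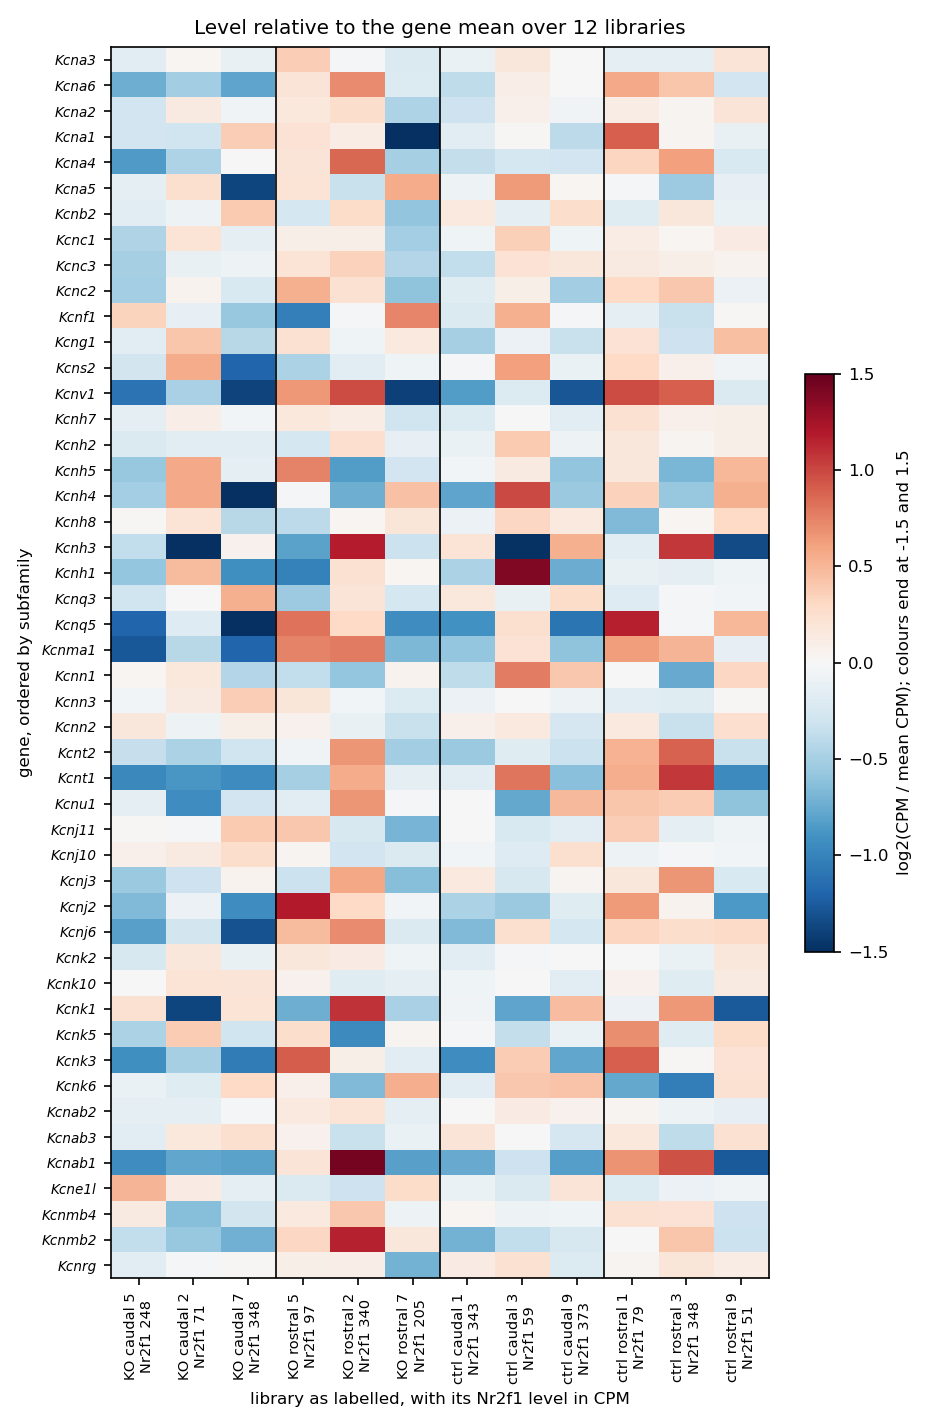
Level of each of the 48 genes in each library relative to the gene's mean, as log2(CPM / mean CPM), with libraries as labelled and their Nr2f1 level in CPM under each column. Kcnab1, Kcnh3, Kcnv1 and Kcnq5 vary most, Kcnk2 and Kcnab2 hardly, and columns of 1 labelled group differ among themselves.

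The first comparison asks which channel genes differ between Egfr knockout and control over the whole dissected cortex. None was called. Counts of the caudal and rostral library titled for each embryo were summed (3 sums against 3) and tested across all genes with edgeR's quasi-likelihood test, and a gene was called at a Benjamini-Hochberg adjusted p under 0.05. The filter on low counts left out 19 members, Kcna7, Kcna10, Kcne1, Kcne2, Kcne3, Kcng2, Kcng4, Kcnj1, Kcnj4, Kcnj13, Kcnk4, Kcnk7, Kcnk15, Kcnk16, Kcnk18, Kcnmb1, Kcnmb3, Kcnv2 and Kcnmb4os1. It kept 16 members under 1 CPM, Kcnc4, Kcne4, Kcng3, Kcnh6, Kcnj5, Kcnj9, Kcnj12, Kcnj14, Kcnj15, Kcnj16, Kcnk12, Kcnk13, Kcnn4, Kcnq1, Kcns1 and Kcns3, besides the 52 above that level. Of the 68 members tested, 0 were called, beside 0.0317% of all 18935 genes tested (6 genes, Egfr among them with a log2 fold change of -2.39, SE 0.17, adjusted p = 0.00553). DESeq2's Wald test and all other settings tried called 0 members too. At an unadjusted p under 0.05 there was 1 member higher, 1.47% of those tested against 1.83% of all genes, and 0 were lower, against 1.57%. Knockout over control, 27 members had positive and 41 negative log2 fold changes, with a median of -0.034, while 49.8% of all genes were positive. This balance turned with 1 titled embryo. Without embryo 7 it was 36 positive and 34 negative (median 0.0070), and without embryo 3 it was 36 and 33 (median 0.014). Without embryo 2 it was 23 positive and 46 negative (median -0.14). In that fit 7 of 69 members were lower and 2 higher at an unadjusted p under 0.05, beside 1027 lower and 1104 higher of 19363 genes.

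The fold changes were small against their errors. The 1 member past an unadjusted p of 0.05 was Kcnn3 (ENSMUSG00000000794.10, chromosome 3, 89427471 to 89582439). It stood at 34.1, 38.5 and 45.2 CPM in knockout caudal and 39.8, 34.1 and 30.5 CPM in knockout rostral libraries, against 32.9, 35.2 and 33.3 CPM in control caudal and 31.4, 31.0 and 35.5 CPM in control rostral libraries. Its log2 fold change was 0.17 (SE 0.06, adjusted p = 1.00 by edgeR), and the genotypes overlapped. Kcnmb2 had a log2 fold change of 0.35 (SE 0.21, adjusted p = 1.00) and Kcne1l of 0.17 (SE 0.11, adjusted p = 1.00). On the other side stood Kcnn1 with -0.29 (SE 0.13), Kcnh4 with -0.29 (SE 0.15) and Kcnh2 with -0.17 (SE 0.10), each with an adjusted p of 1.00. Kcnn1 stood at 11.3 to 19.0 CPM in knockout and at 10.1 to 28.9 CPM in control libraries, so that the control range enclosed the knockout range.

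For the most abundant genes the intervals give a range for the difference between the sums. The log2 fold change of Kcnk2 was 0.05 (95% interval -0.11 to 0.22), of Kcnq3 -0.02 (-0.39 to 0.35), of Kcnc1 -0.17 (-0.42 to 0.08) and of Kcnj11 0.06 (-0.22 to 0.34). Among the 52 tested members of at least 1 CPM, the interval lay within a 2-fold change in either direction for 47 and within a 1.5-fold change for 33. The leading genes of the 19 subfamilies, by level per kb, ran from -0.32 for Kcns2 to 0.17 for Kcne1l. In the single libraries, 0 of the 52 members had knockout and control ranges that did not overlap, against 0.115% of all genes of at least 1 CPM. The sums join libraries that may not share an embryo, so their intervals may not measure the spread between embryos. Deviations of titled partners from their group means correlated at -0.706 to 0.177, and opposite deviations offset each other in a sum. The intervals may therefore be too narrow.

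**Figure D4:**
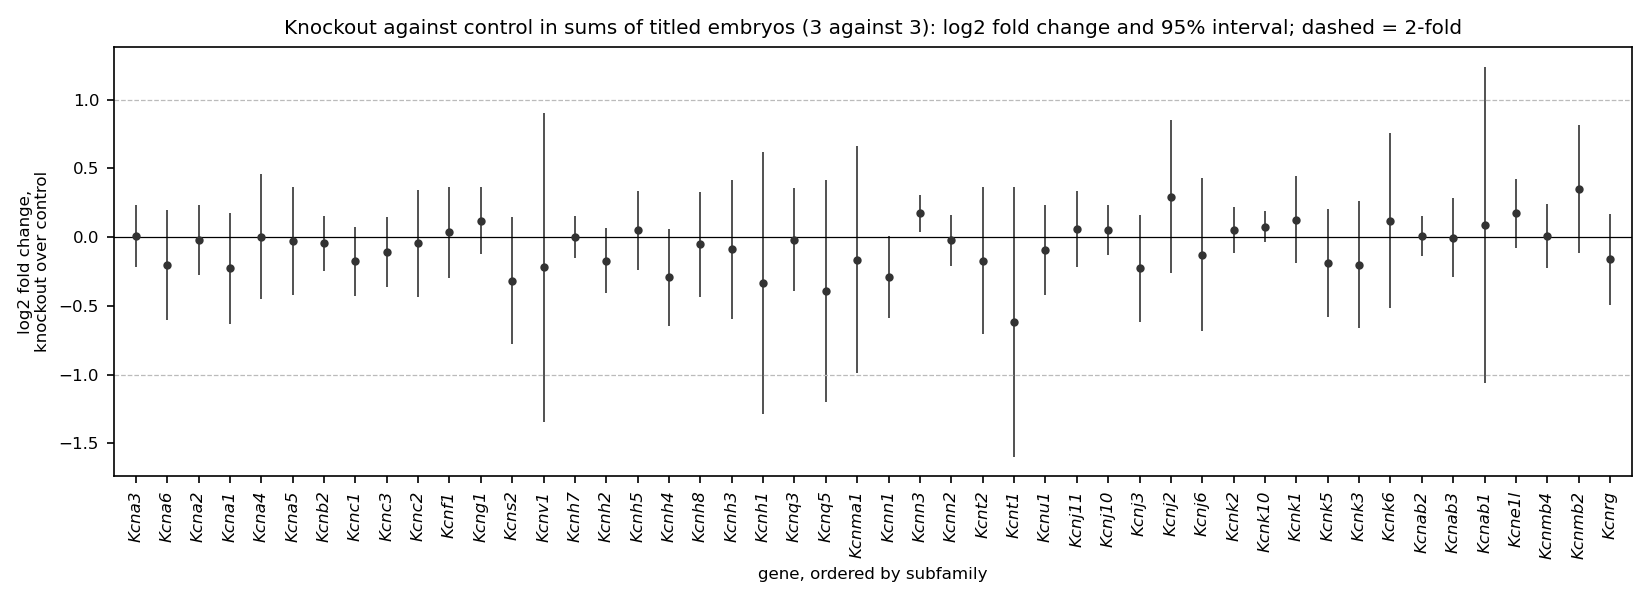
Log2 fold change, knockout over control, in sums of titled embryos (3 against 3) for the 48 genes reported here with a mean of at least 1 CPM, with 95% intervals from edgeR's quasi-likelihood fit and dashed lines at a 2-fold change. Most intervals are short and include 0, and Kcnn3 lies just above it at 0.17.

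Within each part no member was called either, and errors were wider. In caudal libraries 0 of 59 members were called, beside 0.0472% of 16964 genes, and at an unadjusted p under 0.05 there were 3 lower members, 5.08% against 3.13% of all genes, and 0 higher, against 2.00%. They were Kcna6, with a log2 fold change of -0.59 (SE 0.17, adjusted p = 0.727), the G-protein-gated Kcnj9 with -0.88 (SE 0.31, adjusted p = 0.875) and the sodium-activated Kcnt1 with -1.04 (SE 0.38, adjusted p = 0.910), all by edgeR. Kcna6 stood at 8.13, 9.43 and 7.85 CPM in knockout caudal libraries, against 10.5, 14.5 and 13.6 CPM in control caudal libraries, so that these groups did not overlap. In rostral libraries it stood at 15.5, 22.1 and 11.8 CPM in knockout and 20.1, 18.1 and 11.1 CPM in control, where they did. The smallest p in the other direction were those of Kcnk10 with 0.22 (SE 0.09), Kcnj11 with 0.28 (SE 0.13) and Kcnn3 with 0.23 (SE 0.12), with adjusted p of 0.969 or more by edgeR. The median of the 59 members was -0.18, with 43 negative, while 50.4% of all genes were negative, and it ran from -0.21 (without embryo 1) to -0.064 (without embryo 3) with 1 embryo left out. The count of 3 lower and 0 higher members moved with the embryo left out. At an unadjusted p under 0.05, 3 members were higher and 3 lower without embryo 5. Among 17288 genes in that fit, 576 were higher and 546 lower. There was 1 higher member without embryo 2 (3 lower), 3 (4 lower) or 9 (3 lower). There were 0 without embryo 7 (5 lower) or 1 (4 lower). Beside these, 260 genes were higher and 485 lower of 17340 without embryo 2, and 286 and 474 of 17217 without embryo 3. Without embryo 9 there were 221 and 352 of 17287 genes. The numbers were 294 and 477 of 17379 without embryo 7 and 332 and 546 of 17338 without embryo 1. In 1 fit of 12 libraries there were 0 higher and 2 lower members, beside 356 higher and 295 lower of 17734 genes. That fit without knockout caudal 5 and rostral 7 had 2 higher and 1 lower, beside 505 higher and 458 lower of 17993 genes.

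In rostral libraries 0 of 64 members and 0% of 17131 genes were called by edgeR, so that Egfr was not called there either. At an unadjusted p under 0.05 there were 0 higher members, against 0.595% of all genes, and 0 lower, against 0.455%. In all, 180 genes (1.05%) had such a p, and DESeq2's Wald test called 4 genes and 0 members. The smallest p belonged to Kcnc4, a Kcnc gene at 0.445 CPM, with a log2 fold change of 0.71 (SE 0.37, adjusted p = 1.00 by edgeR). Kcnmb2 had 0.59 (SE 0.32) and Kcnab2 0.16 (SE 0.12), and of the negative ones Kcns2 had -0.29 (SE 0.21). The median of the 64 members was 0.06, with 37 positive and 27 negative, and its sign turned with 1 embryo. Without embryo 2 it was -0.094, with 27 positive and 39 negative, without embryo 9 it was -0.0015 and without embryo 7 it was 0.13. In 1 fit of all 12 libraries the median was 0.070, and in that fit without control rostral 1 and 3 it was 0.20. The latter leaves control rostral 9 alone in its group. The common biological coefficient of variation was 0.223 in rostral and 0.180 in caudal libraries, against 0.111 in the sums, so that only 34 rostral and 38 caudal intervals of 52 lay within a 2-fold change.

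Whether the genotype difference itself differed between the parts was tested as an interaction over the 12 libraries. By edgeR 0 of 65 members and 0% of 17734 genes were called, and at an unadjusted p under 0.05 there were 0 members with a positive difference, against 1.51% of all genes, and 0 with a negative one, against 1.23%. In all, 486 genes (2.74%) had such a p, and DESeq2 called 0 genes and 0 members. The median of the 65 members was -0.23, caudal difference minus rostral difference, with 44 negative and 21 positive, while 51.0% of all genes were negative. It stayed negative but ran from -0.39 (without embryo 1) to -0.099 (without embryo 9) with 1 embryo left out. The median was -0.47 without control rostral 1 and 3, a fit that leaves control rostral 9 alone in its group. The smallest p was that of Kcnab2, whose genotype difference was lower in caudal than in rostral libraries by a log2 difference of -0.31 (SE 0.14, adjusted p = 0.998 by edgeR). It averaged 16.1 CPM in knockout and 18.03 CPM in control caudal libraries, and 18.2 CPM in knockout and 16.7 CPM in control rostral libraries. Kcnk10 had a log2 difference of 0.29 (SE 0.16, adjusted p = 0.998). For Kcna6, the member of smallest p in the caudal comparison, the difference was -0.63 (SE 0.35, adjusted p = 0.998 by edgeR), so that its caudal value is not shown to be particular to that part.

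The second comparison of the design sets caudal against rostral cortex, here over all 12 libraries as labelled. By edgeR's quasi-likelihood test 0 of 65 members and 0% of 17734 genes were called. At an unadjusted p under 0.05, 13 members were lower in libraries labelled caudal, 20.0% of those tested against 5.81% of all genes, and 1 was higher, 1.54% against 4.14%. In either direction these were 14 members (21.5%) and 1765 genes (9.95%), and DESeq2 called 74 genes and 0 members. The smallest adjusted p of a member was 0.422, so none of these single values passes the correction. Control rostral 1 and 3 held transcripts of both sexes. The fit without them leaves 1 library in the control rostral group, so only its fold changes are given. The median log2 fold change of the 65 members, caudal over rostral, was -0.14, with 45 negative and 20 positive, while 49.8% of all genes were negative. Without control rostral 1 and 3 the median was -0.041, with 43 negative and 27 positive. Leaving out 1 embryo at a time gave medians between -0.25, when embryo 7 was left out, and -0.074, when it was embryo 1.

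The 13 members came from 11 subfamilies and joined pore and auxiliary genes. They were Kcnmb2, Kcnc4, Kcns3, Kcna6, Kcnv1, Kcnma1, Kcnj6, Kcnk3, Kcnab1, Kcnq5, Kcnj2, Kcna4 and Kcnt2. Kcnmb2 and Kcnma1 are an auxiliary subunit and the pore of the same channel. Kcnmb2 stood at 2.63, 2.29 and 2.07 CPM in knockout caudal and 4.21, 7.59 and 3.82 CPM in knockout rostral libraries, against 2.08, 2.64 and 2.88 CPM in control caudal and 3.40, 4.56 and 2.72 CPM in control rostral libraries. The parts did not overlap in knockout and overlapped in control libraries. Its log2 fold change, caudal over rostral, was -0.79 (SE 0.20, adjusted p = 0.422 by edgeR). Kcnma1, with the values given above, had -0.95 (SE 0.27, adjusted p = 0.430 by edgeR).

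Kcna6 had a log2 fold change of -0.62 (SE 0.17), the silent subunit Kcnv1 of -1.30 (SE 0.38) and the M-current gene Kcnq5 of -1.05 (SE 0.37), with adjusted p of 0.430, 0.430 and 0.442 by edgeR. Kcnv1 stood at 1.09, 1.68 and 0.898 CPM in knockout caudal and 3.70, 4.62 and 0.892 CPM in knockout rostral libraries. In control caudal libraries it stood at 1.31, 2.03 and 0.961 CPM and in control rostral libraries at 4.62, 4.36 and 2.01 CPM. The 4 highest libraries were rostral 5 and 2 of knockout and rostral 1 and 3 of control, and knockout rostral 7, with the highest mitochondrial share, was the lowest of all 12. Kcnc4 and the silent subunit Kcns3, both under 1 CPM, had -1.43 (SE 0.38) and -1.13 (SE 0.30), both with an adjusted p of 0.430 by edgeR. The 1 member higher in caudal libraries was the glial Kcnj10, at 35.0, 36.3 and 39.9 CPM in knockout caudal and 34.0, 27.1 and 28.6 CPM in knockout rostral libraries, against 32.1, 28.9 and 39.3 CPM in control caudal and 31.5, 32.7 and 32.3 CPM in control rostral libraries. Its log2 fold change was 0.21 (SE 0.09, adjusted p = 0.460 by edgeR). Kcnq3 had 0.28 (SE 0.16, adjusted p = 0.585 by edgeR), where Kcnq5 of the same subfamily was negative.

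No single member separated the labelled parts. Of the 52 members of at least 1 CPM, 0 had caudal and rostral ranges that did not overlap, against 0.338% of all such genes. The summed interneuron markers, whose cells enter the cortex from the ventral forebrain, ran from 188 to 855 CPM in caudal and from 284 to 625 CPM in rostral libraries, and those of ventral forebrain and striatum from 784 to 1573.9 CPM in caudal and from 607 to 1397.2 CPM in rostral libraries. In the latter sum Meis2 averaged 793 CPM, from 489 to 1207 CPM over the 12 libraries, and the sum does not show the spread of each gene. Isl1 ran from 0.0781 to 33.0 CPM, Ebf1 from 4.49 to 85.0 CPM and Ppp1r1b from 5.00 to 15.6 CPM. The part of interneurons and ventral forebrain cells in the members' values was not tested.

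**Figure D5:**
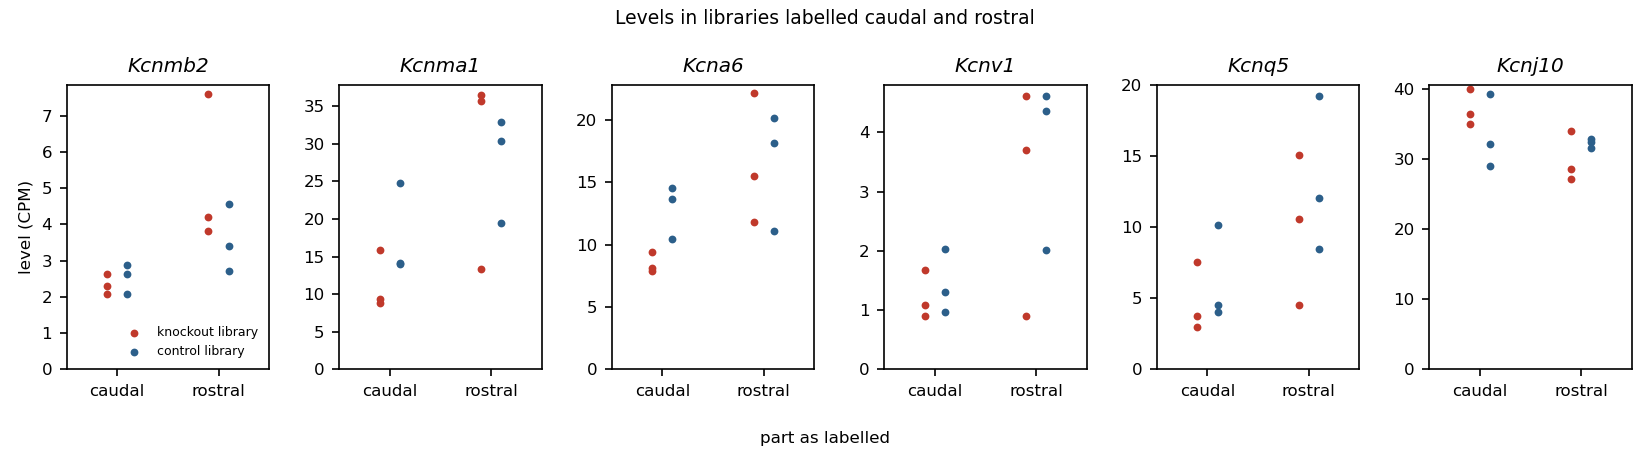
Level in CPM of 6 channel genes in the 6 libraries labelled caudal (left in each panel) and the 6 labelled rostral (right), with 1 point per library and colours for the genotype. Kcnmb2, Kcnma1, Kcna6, Kcnv1 and Kcnq5 average lower and Kcnj10 higher in caudal libraries, and the parts overlap in every panel.

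Genes that act with these channels without carrying the symbol gave the same counts. Of 23 listed partners, which are pacemaker channels, sulfonylurea receptors, accessory, anchoring and organelle proteins, 20 were tested and 0 were called in each comparison. The pacemaker channels Hcn4 and Hcn3 averaged 35.0 and 29.3 CPM, Amigo1, an accessory protein of Kcnb channels, 44.1 CPM, and Ank3, which anchors M-current channels at the axon initial segment, 519.5 CPM. In the sums the smallest p were those of Tmem38a, a channel of intracellular stores, with a log2 fold change of 0.12 (SE 0.07), and Abcc9, a sulfonylurea receptor known from pericytes, with 0.31 (SE 0.17), both with an adjusted p of 1.00 by edgeR. Abcc9 was highest in knockout rostral 7, at 39.0 CPM, where the summed pericyte markers, Abcc9 among them, were also highest, at 233 CPM against 88.4 to 155 CPM in the other libraries. In caudal libraries Sptbn4, a spectrin of the axon initial segment, had -0.38 (SE 0.16, adjusted p = 0.969 by edgeR). Caudal over rostral, Tmem38a had -0.15 (SE 0.06) and Sptbn4 -0.59 (SE 0.25), with adjusted p of 0.460 and 0.481 by edgeR.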

How the data were processed

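The submitters' processing notes name STAR 2.7.8a, featureCounts 2.0.3 and the build GRCm39 for the 12 libraries. Counting used GENCODE mouse release 28 on read pairs of the reverse strand, per the file headers, and gave a read with several positions or genes to each of them in part. The deposited values are expected counts per gene without normalization, and sum to 25224000 to 30384000 per library. Reads of near-identical genes are shared among them; no member of at least 1 CPM had fractional values in all libraries.

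Some genes are counted among the members but not reported here by name. CPM were computed from the deposited counts and the library total, and CPM per kb with the exon length in the files. Counts rounded to whole numbers were tested across all genes in R 4.3.3 with edgeR 4.0.16 (TMM, filterByExpr, robust quasi-likelihood, Benjamini-Hochberg adjusted p under 0.05). The SE is the log2 fold change over the square root of F. The fits were also run on simulated counts that gave every gene the same dispersion, so that run does not measure how they perform on these libraries. Members, lists, tests and named genes were chosen with earlier results of these data known. Named with a fold change are members from the 3 per direction of smallest p in each comparison. In the rostral, interaction and caudal against rostral comparisons some of these 3 are not named. Some leading genes and a few further members of small p are named too. Kcna6 in the interaction was chosen after its values were seen.

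The titles give 2 libraries per embryo the same number. Over the 1000 autosomal genes of highest mean, the deviations of titled partners from their group means correlated at -0.706 to 0.177, with 1 of 6 above 0.1, and other pairs of a genotype at -0.410 to 0.779, with 6 of 12 above 0.1. Alternatives were DESeq2 1.42.0 (size factors, Wald test), no filter, each titled embryo left out, the title number as a batch term or 4692 alone, 1 fit of 12 libraries, the replicate block, and fits without doubted libraries, of which that without the libraries of highest mitochondrial share was added after seeing the data.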

Additional observations from a re-analysis of the deposited data

How the results depend on the processing

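No channel gene was called in any comparison under any setting tried. The count of all genes called moved more. In the sums it was 6, against 30 by DESeq2's Wald test, 113 without a filter and 2 with title number 4692 alone. It ran from 2 (without embryo 5) to 21 (without embryo 2) with 1 titled embryo left out. In 1 fit of the 12 single libraries it was 4. That fit called 2 without the knockout libraries of highest mitochondrial share (rostral 7 and caudal 5). In caudal libraries it was 8, against 72 by the Wald test, 57 without a filter, 0 with 4692 alone, 3 in 1 fit of 12 libraries and 1 without the high-mitochondrial libraries, and 2 to 8 with 1 embryo left out. In rostral libraries it was 0, against 4 by the Wald test and 2 without a filter, and 0 to 0 with 1 embryo left out. In 1 fit of 12 libraries it was 2, and in that fit without the high-mitochondrial libraries it was 2. Caudal against rostral gave 0, with 74 by the Wald test, 2 without a filter and 0 to 6 with 1 embryo left out, and the interaction 0, with 0 to 6. With the replicate block of titled embryos, 0 members and 0 genes were called between parts. At an unadjusted p under 0.05, 11 members were lower with the block, against 13 without it. Of 17734 genes, 648 were lower with the block and 1031 without it. The count of lower members was 16 without the high-mitochondrial libraries, beside 1431 of 17993 genes. With 1 embryo left out it ran from 9 (without embryo 1, beside 465 of 18085 genes) to 17 (without embryo 9, beside 1229 of 18055 genes).

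Changes of sign touched Kcnk2, Kcnq3 and Kcnj11, whose log2 fold changes in the sums were close to 0. They also touched Kcne1l, which stood at 0.17 in the sums. Without the high-mitochondrial libraries Kcne1l stood at -0.041 and Kcnq3 at 0.084 on the log2 scale. With 4692 alone Kcnq3 stood at 0.12, and without the libraries of both sexes Kcnk2 stood at -0.028. With 1 embryo left out, Kcnj11 ran from -0.049 to 0.18, Kcnk2 from -0.0073 to 0.12 and Kcnq3 from -0.14 to 0.14. The cause was not tested. Depth limits the 13 channel genes averaging under 0.1 CPM, none of which passed the filter on low counts in the sums.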
